A study of Mus musculus with 8 samples.

Results

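Peaks of estrogen-related receptor α (ERRα) that lay in promoters poor in CpG dinucleotides were examined in the skeletal muscle and liver of WT and ERRα 3SA mice. A peak was taken when the annotation made by the authors placed it in a promoter and when its CpG content, the fraction of dinucleotides in the called interval that are CpG, was below 0.05. Across the 4 peak lists, 3506 of 126927 peaks met this rule, with 657 of 25427 in WT muscle, 1012 of 50647 in 3SA muscle, 724 of 21813 in WT liver and 1113 of 29040 in 3SA liver. The remaining 3119 promoter peaks, with a CpG content of 0.05 or more, are called CpG-rich here and served for comparison.

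ERRα 3SA mice carry mutations at 3 serine phosphorylation sites in the amino-terminal domain of ERRα, in both tissues, and were compared with WT littermates. All mice were male, on the C57BL/6N background, 2 to 3 months old and sampled at zeitgeber time 9. An antibody to ERRα was used on chromatin from gastrocnemius and soleus pooled from 5 mice or from liver pooled from 2 mice, and several immunoprecipitations were combined into each library, 3 by the labels, while the methods give another number. Each combination of genotype and tissue was therefore 1 library with 1 peak list, so that no difference between genotypes or tissues could be set against the spread between animals, and no p-value is given. Whole tissue was used, and binding in the main cell type could not be told apart from binding in the other cells of the tissue.

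ERRα is an orphan nuclear receptor that activates genes of mitochondrial respiration and fuel oxidation together with its coactivator PGC-1α. It binds as a monomer or a dimer to the estrogen-related response element (ERRE), in which a nuclear receptor core motif is preceded by an extension that sets ERRα apart from receptors that need a repeated core. Many housekeeping and respiratory genes start transcription in CpG islands, whereas promoters of genes restricted to 1 tissue are often poor in CpG.

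The sequences that follow are read 5′ to 3′ on the stated strand of GRCm38.p6 (RefSeq), the assembly also called mm10, with the ERRE TCAAGGTCA or its core motif AAGGTCA in capitals. They were picked, after the values were seen, from the best-scoring sites and from tissue-restricted genes described below, and show where in the promoter the element lay. The first group holds an ERRE from within the called interval of a CpG-poor promoter peak, at Esrra itself (chr19:6922327-6922355, + strand, -533 bp from the start site, upstream), Ndufb4 (chr16:37654738-37654766, + strand, -384 bp), Got1 (chr19:43525041-43525069, - strand, -450 bp), Gdap1l1 (chr2:163437936-163437964, - strand, -517 bp), Bard1 (chr1:71103657-71103685, - strand, -699 bp) and Ckmt2 (chr13:91876808-91876836, - strand, 63 bp downstream of the start site, in an exon).
Esrra ERRE: cggacaaaacTCAAGGTCActgcggtgac
Ndufb4 ERRE: ttgtcattagTCAAGGTCAttagtgtctc
Got1 ERRE: gtggagacagTCAAGGTCAcccacgattg
Gdap1l1 ERRE: gtgaccttgcTCAAGGTCAtagagctgct
Bard1 ERRE: actgagaagtTCAAGGTCAcccttagctt
Ckmt2 ERRE: tcctccagctTCAAGGTCAgtcagatgct

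At other high-scoring or tissue-restricted sites the peak held the core motif without the TC that completes TCAAGGTCA, the form of the ERRE searched here. In 5 of the 6 shown next the core was preceded by CC, and in 4 of them it lay within 100 bp upstream of the start site: Zfp27 (chr7:29906133-29906159, + strand, -42 bp, in an exon of another transcript or gene), E330017L17Rik (chr4:129906175-129906201, + strand, -38 bp), Dhcr7 (chr7:143823106-143823132, + strand, -48 bp), Ak1 (chr2:32628290-32628316, + strand, -87 bp), Mir133a-2 (chr2:180397868-180397894, + strand, -498 bp) and Cpt1b (chr15:89426093-89426119, + strand, -244 bp).
Zfp27 core: ttcaagcaccAAGGTCActtccggtct
E330017L17Rik core: gacctctgccAAGGTCAcggctcagtc
Dhcr7 core: gctgttgcccAAGGTCAgagcgtcctg
Ak1 core: tgactttcccAAGGTCAttctgcctcc
Mir133a-2 core: ccttgcccccAAGGTCActacaagcca
Cpt1b core: atgtagggaaAAGGTCAccaggagtca

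A pair of ERREs lay in tandem in the promoter of 2310069B03Rik, an uncharacterised gene with a CpG-poor promoter peak in all 4 lists. The 100 bp shown run from 1050 to 951 bp upstream of its start site (chr6:82882804-82882903, - strand, the strand of the gene) and hold 2 ERREs and 1 CpG.
2310069B03Rik promoter: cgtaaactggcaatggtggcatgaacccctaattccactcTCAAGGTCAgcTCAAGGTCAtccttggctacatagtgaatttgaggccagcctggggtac

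The 150 bp around the core motif of Cpt1b, the muscle form of carnitine palmitoyltransferase 1 and the entry step of fatty acids into mitochondria, run from 330 to 181 bp upstream of the start site (chr15:89426043-89426192, - strand, the strand of the gene). Here the core motif is read on the other strand, as TGACCTT in capitals, and the window holds 1 CpG.
Cpt1b promoter: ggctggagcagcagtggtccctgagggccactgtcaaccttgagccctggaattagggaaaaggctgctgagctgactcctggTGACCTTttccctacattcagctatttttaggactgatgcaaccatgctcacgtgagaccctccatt

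CpG-poor peaks made up 42.6% of promoter peaks in WT muscle (95% Wilson interval 40.2 to 45.1), 52.5% in 3SA muscle (50.3 to 54.7), 58.8% in WT liver (56.0 to 61.5) and 57.8% in 3SA liver (55.6 to 60.0). These intervals, and those that follow, cover counting error over peaks only. WT muscle had the smallest share, and the intervals of the 2 liver lists overlapped. The peaks named 650, 988, 721 and 1096 genes as nearest in WT muscle, 3SA muscle, WT liver and 3SA liver, an order kept for all values given as 4 numbers below, and 2523 genes in any of the lists. Their peak score, a whole number of at least 30 that the peak caller assigned against input DNA, had a median of 38, 36, 49 and 55 and reached 3525, 4556, 2935 and 5938. Scores order peaks within a list and were not compared between lists, since the lists carry no read numbers and the depth of the libraries is unknown.

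The CpG content of the members had a median of 0.0248, 0.0220, 0.0217 and 0.0225, against 0.0785, 0.0758, 0.0700 and 0.0730 in CpG-rich promoter peaks. The distribution ran through the 0.05 limit without a gap. Between 0.04 and 0.05 lay 147, 181, 103 and 186 members, and between 0.05 and 0.06 lay 156, 197, 136 and 206 peaks that were not members. The members nearest the limit were peaks at Snhg10, Fbln7, Acsl6 and Rbm47, each at 0.0499 with scores of 49, 49, 49 and 55. The peaks just outside it, at 0.05, were those at Mrps26, St3gal3, Rbm47 and Dnajc4, with scores of 30, 79, 44 and 177. Rbm47 thus stood on either side of the limit in the 2 liver lists.

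**Figure D1:**
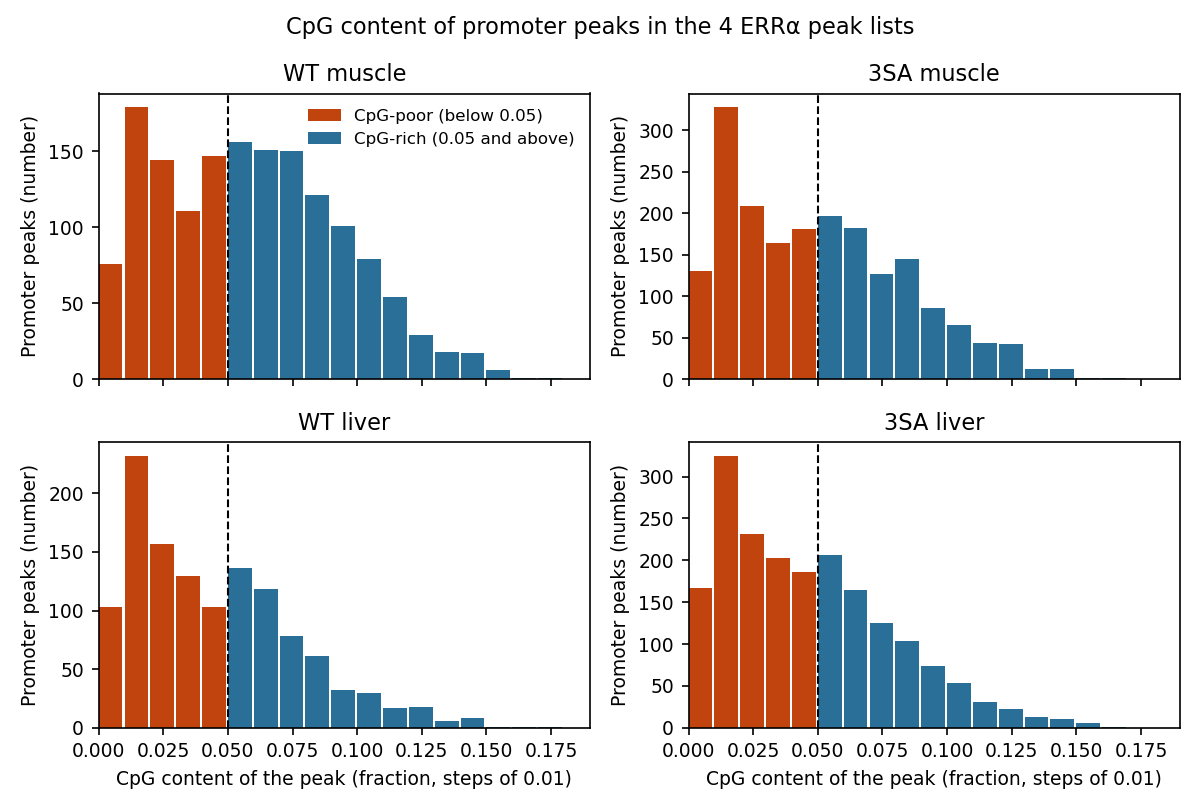
CpG content of promoter peaks in each list, with the number of peaks on the y axis and the fraction of dinucleotides that are CpG on the x axis. The line at 0.05 separates CpG-poor members from CpG-rich peaks, and peaks lie on both sides of it in all 4 lists.

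CpG-poor promoter peaks lay farther from the start site than CpG-rich ones. The median distance of the peak centre from the nearest start site was -328, -318, -416 and -425 bp for members and -29.5, -31.5, -78 and -59.5 bp for CpG-rich peaks, with negative values upstream. Centres within 300 bp of the start site made up 40.6, 42.6, 32.9 and 30.3% of members, against 71.0, 75.1, 67.3 and 70.4% of CpG-rich peaks. Most members were upstream, with 80.1, 80.9, 83.7 and 85.6%. Non-coding RNA genes were the nearest gene for 14.2, 14.6, 10.4 and 9.79% of members and for 6.33, 6.00, 7.30 and 6.90% of CpG-rich peaks, against 14.3, 15, 13.6 and 12.8% of all peaks. The members were thus above the CpG-rich class and not above their whole list. Mir133a-2, a microRNA of striated muscle, was among these genes.

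**Figure D2:**
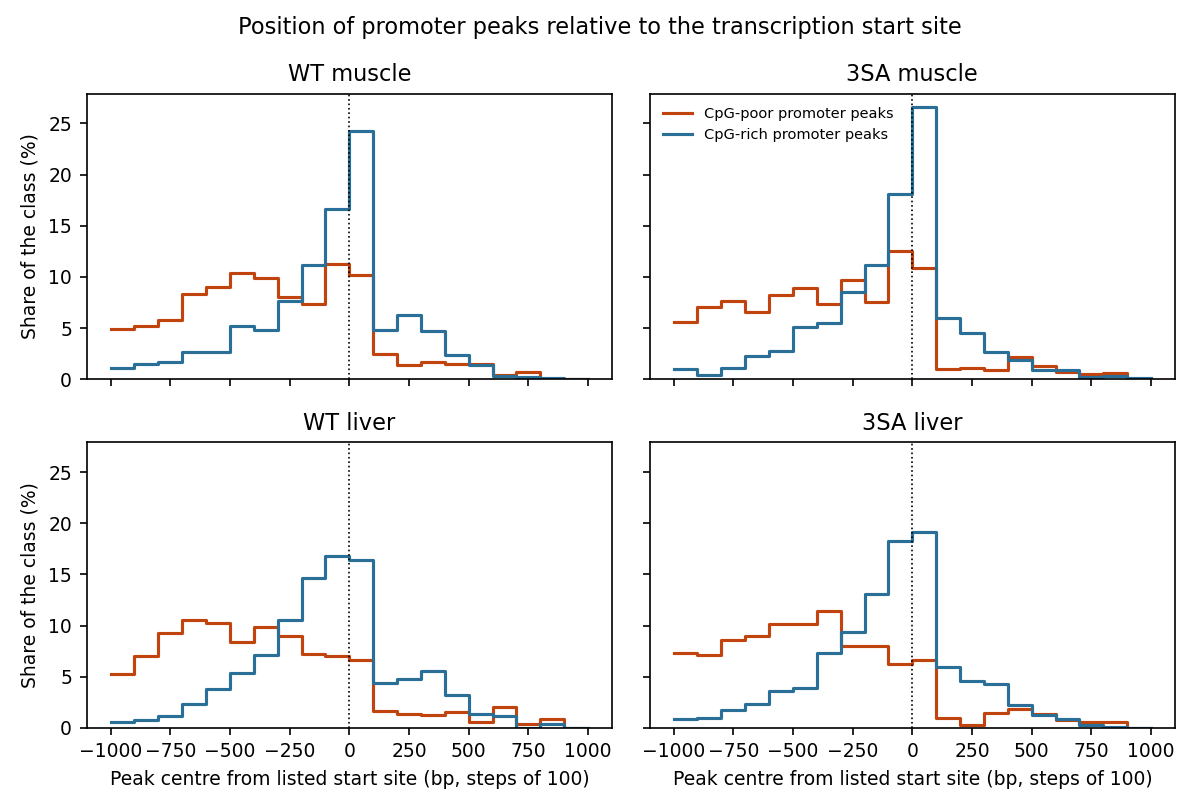
Distance of the peak centre from the nearest start site in bp on the x axis, negative upstream, and share of peaks in percent on the y axis, for CpG-poor and CpG-rich promoter peaks in each list. CpG-rich peaks pile up at the start site, and CpG-poor peaks spread upstream of it, with medians of -318 to -425 bp.

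A CpG-poor peak was not always at a CpG-poor promoter. For 625, 975, 700 and 1078 members the start site was found in RefSeq, and the sequence from 250 bp before to 50 bp after it was itself below 0.05 in CpG content for 58.1, 62.9, 51.3 and 48.1% of them. Over all 31647 RefSeq promoters the share was 57.2%, and for CpG-rich promoter peaks it was 7.39, 8.38, 8.94 and 8.72%. The rest of the members were CpG-poor stretches beside a CpG-rich start, and these lay farther out, at a median of -414, -426, -491 and -496 bp against -239, -248, -290 and -311 bp for members at a CpG-poor start. Esrra, Ndufb4, Got1 and Bard1 were of this kind, with CpG contents of 0.0836, 0.0769, 0.0602 and 0.0769 at their start sites, and Zfp27 was at a CpG-poor start, at 0.0435.

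The ERRE was found more often in CpG-poor than in CpG-rich promoter peaks of every list. In the 300 bp around the peak centre, on either strand, TCAAGGTCA was present in 37 members or 5.63% in WT muscle (4.11 to 7.67), 49 or 4.84% in 3SA muscle (3.68 to 6.34), 112 or 15.5% in WT liver (13 to 18.3) and 140 or 12.6% in 3SA liver (10.8 to 14.7). CpG-rich peaks held it in 1.92, 2.07, 4.93 and 3.33%. The difference between CpG-poor and CpG-rich peaks, with its 95% Newcombe interval, was 3.71 percentage points in WT muscle (1.81 to 5.87), 2.77 in 3SA muscle (1.14 to 4.44), 10.5 in WT liver (7.21 to 13.8) and 9.25 in 3SA liver (6.91 to 11.6). All 4 intervals lay above 0. Among peaks with scores of 100 or more the intervals of both muscle lists included 0, at 7.69 points in WT muscle (-1.75 to 20.3) and 3.81 in 3SA muscle (-2.88 to 11.6).

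The ERRE share of members was set against 3 backgrounds. Windows of the same length 5 kb to either side of the members held the ERRE in 0.304, 1.19, 0.967 and 0.988%, all RefSeq promoters of 300 bp in 0.392%, and the motif written backwards without complementing (ACTGGAACT) was in 0.304, 0.395, 0.552 and 0.270% of members. The member shares were higher than each of these. In CpG-rich promoter peaks the backward motif was in 0.113, 0.109, 0.197 and 0.123%, also less than in members, on few peaks. Some motifs of other factors, given below, were likewise more frequent in CpG-poor than in CpG-rich peaks. Peaks outside promoters held the ERRE in 3.95, 4.31, 14.8 and 15.7%, and members differed from them by 1.68 points in WT muscle (0.140 to 3.73), 0.529 in 3SA muscle (-0.645 to 2.04), 0.636 in WT liver (-1.86 to 3.49) and -3.10 in 3SA liver (-4.97 to -0.981). In ERRE content the CpG-poor promoter peaks thus stood nearer to peaks outside promoters than to CpG-rich promoter peaks.

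**Figure D3:**
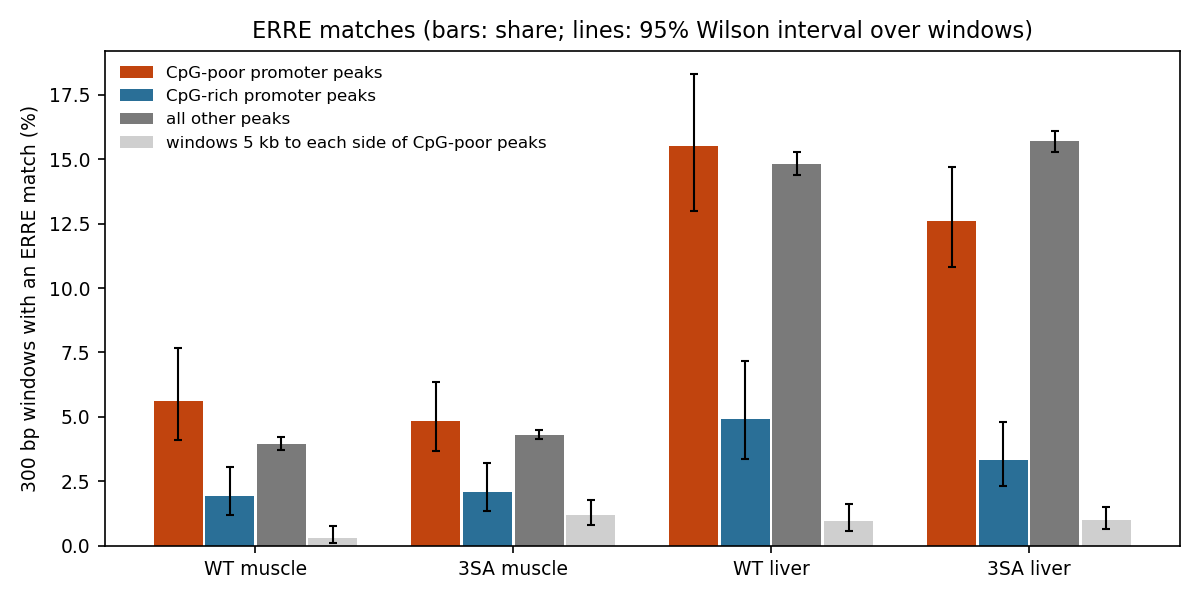
Share of peaks in percent with the ERRE TCAAGGTCA in the 300 bp around the centre, by peak class and list, with bars as 95% Wilson intervals over peaks. CpG-poor promoter peaks lie above CpG-rich ones in all 4 lists, at 4.84 to 15.5% against 1.92 to 4.93%.

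The ERRE share moved with score and with position. Members with scores of 30 to 49, 50 to 99 and 100 or more held it in 3.62, 10.2 and 15.4% in WT muscle, 2.76, 10.9 and 11.5% in 3SA muscle, 10.8, 15.9 and 24.1% in WT liver, and 6.29, 14.4 and 21.5% in 3SA liver. CpG-rich peaks with scores of 100 or more held it in 7.69, 7.69, 12.6 and 9.28%. Members centred within 300 bp of the start site held it in 3.37, 2.55, 7.56 and 5.93%, and those farther upstream in 7.98, 6.74, 20.5 and 16.0%. Position moved with CpG class, so the classes were also set side by side within each position. Near the start site the CpG-poor minus CpG-rich difference was 1.78 points in WT muscle (-0.282 to 4.78), 0.953 in 3SA muscle (-0.719 to 3.04), 4.63 in WT liver (1.01 to 8.92) and 3.66 in 3SA liver (1.07 to 6.86). Farther upstream it was 4.55 (0.0127 to 8.34), 3.13 (-1.32 to 6.29), 9.33 (1.17 to 15.5) and 9.46 points (4.04 to 13.5). Within a position the difference stood clear of 0 in both liver lists, and in muscle only for the farther WT peaks. Members at a CpG-rich start, such as Bard1, held the ERRE in 6.49, 5.52, 19.4 and 15%, and members at a CpG-poor start in 4.96, 4.40, 11.4 and 10.4%.

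The core motif AAGGTCA, which every ERRE contains, was in 15.4, 16.9, 39.1 and 33.3% of members, in 9.95, 13.1, 23.3 and 17.9% of CpG-rich peaks and in 4.12% of RefSeq promoters. The 2 bases before the core differed between the classes. They were TC, giving the ERRE in the form searched here, in 33.6, 26.8, 36.1 and 35.1% of 113, 190, 316 and 404 matches in members. In CpG-rich peaks they were TC in 18.9, 15.4, 19.8 and 18.1% of matches. They were CC, as at Zfp27, Dhcr7 and Ak1 above, in 19.3 to 26.3% of matches in members, and in 30.9, 34.9 and 32.2% of matches in CpG-rich peaks of 3SA muscle, WT liver and 3SA liver.

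Part of the ERREs lay in repeats. The whole motif was soft-masked in the RefSeq genome in 35.1, 36.7, 42.9 and 41.4% of the member windows that held one. Among these were the windows of Bard1 in both livers and Atp5j in 3SA liver. The window of 2310069B03Rik was among them in WT muscle, and not in 3SA muscle or WT liver. Masked bases made up 11.9, 11.9, 15.1 and 14.6% of member windows, 4.66 to 5.14% of CpG-rich windows and 26.0, 27.8, 28.6 and 28.7% of the windows 5 kb away. Windows with an ERRE and no masked ERRE made up 3.65, 2.96, 8.70 and 7.37% of members and 1.47, 1.53, 3.35 and 2.71% of CpG-rich peaks. Counted this way, the share of members was lower in each list and stayed above that of CpG-rich peaks.

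Motifs of other factors were counted in the same windows on both strands. TATAAA, the core of the TATA box, was in 6.24, 6.42, 9.39 and 9.25% of members, below the windows 5 kb away (16.9, 16.5, 18.3 and 16.4%) and below RefSeq promoters (12.3%). The RefSeq windows span the start site, whereas most member windows were centred upstream of it. At the start sites found in RefSeq, TATAAA began at -40 to -20 bp for 1.60, 2.46, 2.14 and 1.76% of members. The share was 2.31% over all RefSeq promoters and 3.43% over the CpG-poor ones. CAGCTG, an E-box bound by myogenic factors among others, was in 21.2, 21.6, 18.0 and 16.8% of members, against 16.1, 15.6, 15.5 and 14.9% 5 kb away and 16.1% of RefSeq promoters. The MEF2 motif TAAAAATA was in 2.13, 1.58, 2.07 and 1.62%, below the 4.19, 4.20, 4.70 and 4.63% found 5 kb away. The C/EBP motif TTGCNNAA was in 11, 10.2, 13 and 14.3% of members, with 11.1, 10.3, 11 and 11% 5 kb away. CCAAT was in 30.3, 31.9, 34.0 and 31.6%, near the 32.0, 32.6, 34.0 and 32.4% 5 kb away. The HNF4 and HNF1 motifs CAAAGTCCA and GTTAATNAT were in less than 1% of members of every list. CpG-rich promoter peaks held TATAAA in 2.49, 3.49, 2.96 and 3.45% and CCAAT in 24.9, 25.9, 21.9 and 23.9%. They held TTGCNNAA in 5.88, 6.22, 6.31 and 6.65%. A higher share in CpG-poor than in CpG-rich peaks was thus not particular to the ERRE. The part of base composition in the ERRE difference was not tested.

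The best-scoring CpG-poor promoter peaks were shared by the lists in part. Zfp27, which encodes a zinc finger protein, had the best-ranked member in both muscle lists at scores of 3525 (rank 7 of the list) and 4556 (rank 8), and scored 1942 (rank 34) and 2884 (rank 18) in WT and 3SA liver. It was a member in all 4 lists, centred 79, 51, 40 and 13 bp upstream of the start, without an ERRE in the window. A start site of Mir7668 lay in its 3SA muscle interval or within 250 bp of it. Esrra, which encodes ERRα, had a member in WT muscle with a score of 3342 (rank 8) and in 3SA liver with a score of 5938 (rank 3). In 3SA muscle its peak scored 5343 (rank 6) and was annotated to a transcription end site, over an interval of 4101 bp, and in WT liver it scored 4823 (rank 5) as a CpG-rich promoter peak. The Esrra peak was thus among the 10 best of all 4 lists while it met the rule in 2 of them.

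Several of the best-scoring members were at genes of mitochondrial respiration. Uqcr10, a subunit of complex III, was a member in all lists with scores of 889, 1365, 1942 and 2243, and the start site of Zmat5 lay beside it. Its peak was centred 85 bp upstream of the start in WT muscle and 477 to 586 bp downstream in the other lists. Ndufb4, a subunit of complex I, was a member in WT liver (2935) and 3SA liver (2811) and a CpG-rich peak in WT muscle (1073) and 3SA muscle (2532). Sdhb, the iron-sulfur subunit of succinate dehydrogenase, was a member in 3SA muscle (3240) and 3SA liver (1808), with a peak in an exon in WT muscle (2867) and in an intron in WT liver (1114). At all 3 genes every list had a peak, and the annotation or the CpG content of the interval set which ones counted.

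Other genes at the head of the lists had varied roles. Got1, the cytosolic aspartate aminotransferase of the malate-aspartate shuttle, scored 814, 1499, 672 and 986 and was a member in every list. Oplah, the 5-oxoprolinase of glutathione turnover, scored 518, 803, 658 and 1307, also as a member throughout. Mpv17l2, a mitochondrial membrane protein, was CpG-rich in WT muscle (1731) and a member in 3SA muscle (3673), WT liver (1745) and 3SA liver (2436). Trap1, a mitochondrial chaperone, was a member in WT muscle (756) and CpG-rich in the other lists (1018, 615 and 859). Sh2b1, an adaptor of insulin and leptin signalling, was a member in the 3SA lists (1291 in muscle and 1407 in liver) and CpG-rich in the WT lists (829 and 876). The transcription factor Jund and the cyclophilin Ppia were members only in 3SA liver, at 2829 and 2102, with CpG-rich or intergenic peaks in the other lists.

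Within the named genes, Rpl3l, a ribosomal protein gene of striated muscle, scored 504 in WT and 949 in 3SA muscle and 44 and 64 in the livers. Cep70, a centrosomal protein gene, scored 146, 670, 1142 and 1209, and 2310069B03Rik scored 413, 1272, 1323 and 2107. All 3 were members in every list. Rpl3l stood at 0.594 and 0.227% of the muscle lists and at 45.2 and 33.4% of the liver lists, counted from the best score. Dnajb5, a heat shock cochaperone, was a member in WT muscle (518), had an exon peak in 3SA muscle (435) and no peak in liver.

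**Figure D4:**
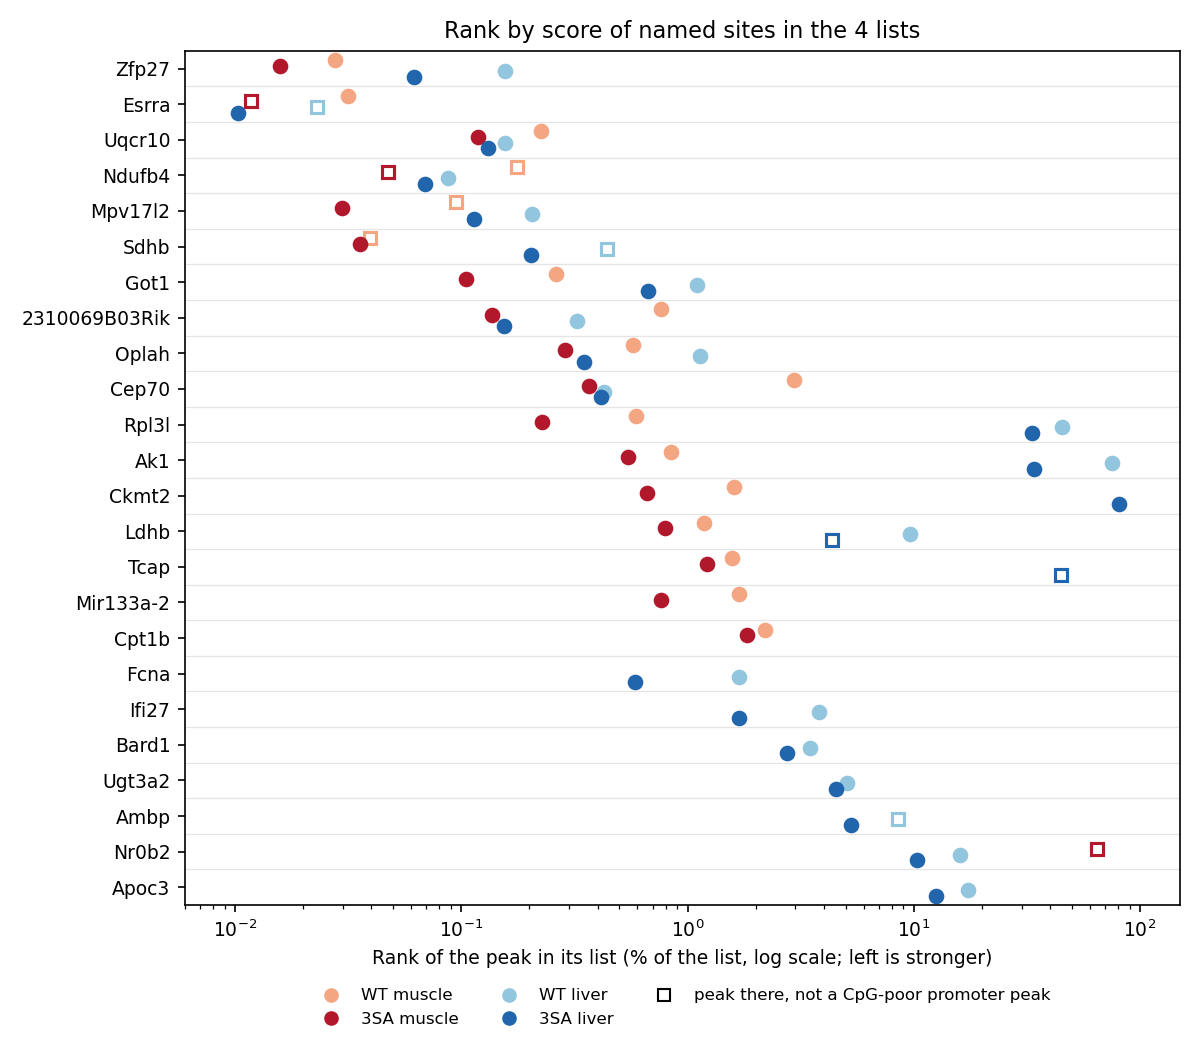
Rank of the peak at 24 named genes as percent of its list, on a log axis where smaller is better scored, by list. Filled points are CpG-poor promoter members and open squares are peaks of another class at the same site. Zfp27 and Esrra stay at the head of all 4 lists, while Rpl3l, Ak1 and Ckmt2 rank better in muscle and Fcna, Ambp and Ugt3a2 appear in liver.

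The members were more in number in 3SA than in WT mice in both tissues. In muscle there were 1.54 times as many (95% interval 1.40 to 1.70), with 1.04 times as many CpG-rich promoter peaks (0.945 to 1.14) and 1.99 times as many peaks in all (1.96 to 2.02). In liver there were 1.54 times as many (1.40 to 1.69), with 1.60 times the CpG-rich promoter peaks (1.43 to 1.79) and 1.33 times all peaks (1.31 to 1.35). The muscle ratio turned around when both muscle lists were shortened to the same number of best-scored peaks, with 0.865 times as many members in 3SA muscle (0.773 to 0.967), and the liver ratio became 1.23 (1.12 to 1.36). The greater number in 3SA muscle therefore went with the greater length of that list, and list length, depth and genotype cannot be told apart with 1 library a group.

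By CpG content, muscle members below 0.02 went from 255 to 458, or 1.80 times (1.54 to 2.09), and members from 0.02 to 0.05 from 402 to 554, or 1.38 times (1.21 to 1.57). In liver the ratios were 1.47 below 0.02 (1.28 to 1.69) and 1.60 above it (1.41 to 1.81). In both tissues the 2 intervals overlapped, which does not show that the 2 ratios were equal, and their difference was not tested. Pvalb, the calcium buffer of fast fibres, met the rule in 3SA and not in WT muscle, with its best member at 332, but WT muscle had a peak there (478) that was annotated to an intron.

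A minority of muscle members and most WT liver members had a counterpart in the other genotype, taken as a peak centred within 300 bp. In WT muscle 178 members or 27.1% (23.8 to 30.6) had a 3SA counterpart, against 20.2% of all WT muscle peaks, and in 3SA muscle 184 or 18.2% (15.9 to 20.7) had a WT one, against 10.1% of all. In WT liver the count was 416 or 57.5% (53.8 to 61.0), against 42.9% of all, and in 3SA liver 431 or 38.7% (35.9 to 41.6), against 32.2%. Members thus had a counterpart more often than the peaks of their whole list, and less often than CpG-rich promoter peaks in 3 lists. The CpG-poor minus CpG-rich difference was -7.30 points in WT muscle (-11.9 to -2.63), -15.0 in 3SA muscle (-18.9 to -11.1), -6.45 in WT liver (-11.9 to -0.892) and -2.29 in 3SA liver (-6.72 to 2.13), the last with 0 inside its interval.

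Where a counterpart existed it was itself a CpG-poor promoter peak for 140, 140, 355 and 355 members, or 78.7, 76.1, 85.3 and 82.4% of those with one. It was a CpG-rich promoter peak for 22, 27, 47 and 42 members and of another class for 16, 17, 14 and 34. Trap1 above is a gene whose peak crossed the limit between the muscle lists in this way.

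Presence in the other genotype rose with score. Members with scores of 30 to 49, 50 to 99 and 100 or more had a counterpart in 17.3, 47.2 and 78.8% in WT muscle, 8.15, 35.5 and 64.6% in 3SA muscle, 35.8, 72.0 and 87.2% in WT liver, and 12.0, 43.9 and 78.5% in 3SA liver. Members with an ERRE had one in 64.9, 44.9, 74.1 and 63.6%, and members without in 24.8, 16.8, 54.4 and 35.1%. The ERRE members also had higher scores, with medians of 50, 57, 81 and 96 against 36, 36, 49 and 49, so element and score moved together.

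**Figure D5:**
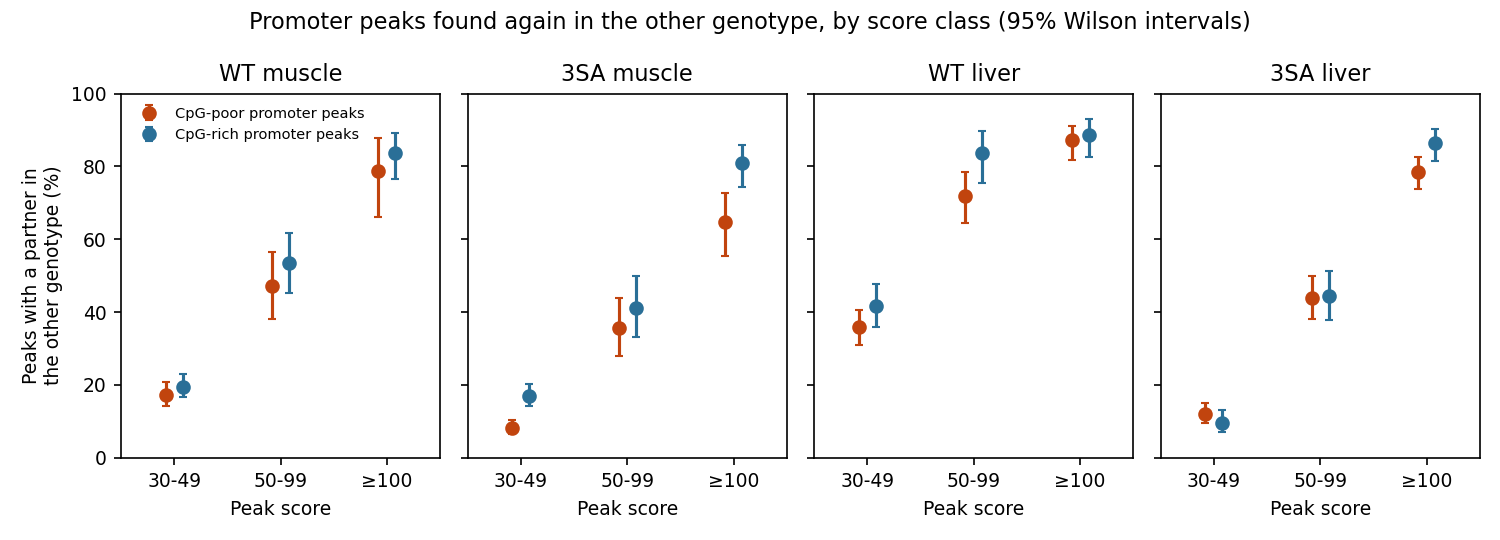
Share of promoter peaks in percent with a peak centred within 300 bp in the other genotype, by score class, for CpG-poor and CpG-rich promoter peaks in each list, with bars as 95% Wilson intervals. The share of CpG-poor peaks rises from 8.15 to 35.8% at scores of 30 to 49 to between 64.6 and 87.2% at 100 or more.

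Members reached the top 10% of their list by score less often than CpG-rich peaks in muscle and WT liver. A place in the top 10% was reached by 17.2, 18.3, 15.7 and 15.9% of members and by 24.7, 28.7, 20.7 and 16.4% of CpG-rich peaks, a difference of -7.46 points in WT muscle (-11.5 to -3.35), -10.4 in 3SA muscle (-14.2 to -6.65), -4.96 in WT liver (-9.45 to -0.614) and -0.476 in 3SA liver (-3.86 to 2.81). The lowest score of the list was shared by 25.9 and 31.8% of members in WT and 3SA muscle and by 0.138 and 0.359% in the livers. The lower muscle ranks are thus tied. Lower liver ranks held ties as well, above the lowest score. In WT liver a score of 33 had rank 16370 and a score of 32 rank 21383. In 3SA liver a score of 37 had rank 18865 and a score of 36 rank 22579.

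Some high-scoring members without a counterpart, such as Esrra and Uqcr10 in WT muscle or Mpv17l2 and Sdhb in 3SA muscle, belonged to genes with a peak in the other genotype whose centre lay more than 300 bp away. Members with neither a counterpart nor a base shared with any peak of the other genotype had lower scores. In WT muscle the highest of these were Mrpl51, a mitochondrial ribosomal protein gene, Zfp526, a zinc finger gene, and Gm21190, a predicted gene, at 99, 99 and 85, and all 3 had a member in 3SA liver. In 3SA muscle BC037032 (192) and Prex1 (170), a Rac exchange factor, were the highest of this kind, and these were members in both livers. In WT liver they were Snx24 (89), Mospd3 (89) and Tepsin (82). In 3SA liver they were Atp5j (260), a subunit of ATP synthase with an ERRE 763 bp upstream of its start, Cyhr1 (195) and Gys2 (189), the liver glycogen synthase. Atp5j had a CpG-rich promoter peak (109) in 3SA muscle.

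Between tissues fewer members had a counterpart than between genotypes, except in 3SA muscle, where more did (23.1 against 18.2%). A liver peak of the same genotype was centred within 300 bp of 144 WT muscle members or 21.9%, against 11.7% of all WT muscle peaks, and of 234 3SA muscle members or 23.1%, against 11.5% of all. A muscle peak was near 160 WT liver members or 22.1%, against 13.6% of all WT liver peaks, and near 266 3SA liver members or 23.9%, against 20.1%. CpG-rich promoter peaks had one in 28.1, 40.2, 45.4 and 39.2%. The CpG-poor minus CpG-rich difference was -6.14 points in WT muscle (-10.4 to -1.75), -17.1 in 3SA muscle (-21.1 to -12.9), -23.3 in WT liver (-28.5 to -17.9) and -15.3 in 3SA liver (-19.4 to -11.1). CpG-poor promoter peaks were thus the less shared of the 2 promoter classes between muscle and liver.

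At scores of 100 or more the share with a counterpart in the other tissue was 71.2 and 66.4% in muscle and 40.5 and 45.1% in liver, and among CpG-rich peaks of that score 79.2, 84.6, 77.5 and 75.1%. ERRE members had one in 70.3 and 79.6% in muscle, against 19.0 and 20.2% of members without an ERRE, and in 28.6 and 37.9% in liver, against 20.9 and 21.9%. The muscle ERRE members were 37 and 49 in number, so their shares rest on few peaks.

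Members of all lists were joined into 2685 sites at 2523 genes, of which 184 sites held an ERRE in the window of their best-ranked member. A member came from 1 list at 2128 sites, from 2 at 361, from 3 at 128 and from all 4 at 68. Counting any peak at the site and not only members, 267 sites had one in all 4 lists and 1595 in only 1. The ERRE was at 3.26% of sites with a peak in 1 list, 9.11% with 2, 14.7% with 3 and 16.1% with 4, so the share was higher where more lists had a peak. These shares rest on 1595, 571, 252 and 267 sites. The median best rank of the sites was 53.4, 24.6, 10.5 and 3.39% of a list, so score rose with the number of lists. Of the sites with 1 list, 337 had a peak in WT muscle alone and 595 in 3SA muscle alone, with an ERRE at 0.593 and 0.504%. Another 195 were in WT liver alone and 468 in 3SA liver alone, with an ERRE at 8.21 and 6.62%. Score and tissue were not separated from the number of lists.

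The share of sites with an ERRE differed with the pattern of membership. It was 1.40% of 430 sites with a member in WT muscle alone, 0.962% of 728 in 3SA muscle alone, 8.47% of 307 in WT liver alone and 7.84% of 663 in 3SA liver alone. It was 6.12% of 49 sites with members in both muscles only, 17.4% of 195 in both livers only, 24.2% of 66 in 3SA muscle and both livers, and 16.2% of the 68 in all 4.

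Uqcr10 and 2310069B03Rik were members in every list as genes, but their peak centres did not fall at 1 site. Beside Zfp27, Got1, Oplah and Cep70, the sites with members in all lists included genes of varied function. E330017L17Rik, a non-coding transcript, scored 147, 461, 737 and 820 and Palld, an actin-binding scaffold, 95, 396, 627 and 782. Gdap1l1 scored 90, 198, 651 and 922 with the ERRE printed above. Dhcr7, the last enzyme of cholesterol synthesis, scored 338, 439, 194 and 633, the WT muscle peak being assigned to the neighbouring Nadsyn1. Fubp3 scored 99, 350, 264 and 539. Sfi1, a centrin-binding protein gene, scored 291, 263, 733 and 323, and its liver intervals were 4894 and 4777 bp wide against a median of 509.5 and 500.0 bp for members.

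Sites with members in both muscle lists and no peak in either liver were led by Mir133a-2, at 222 in WT and 409 in 3SA muscle, and Cpt1b, at 178 and 214. They were followed by Hjurp, a centromeric histone chaperone, at 92 and 86, by Asb2, a ubiquitin ligase subunit of muscle, at 59 and 119, and by Irgq at 57 and 118. The ERRE was at 2 of the 38 sites of this kind, or 5.26%.

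Sites with members in both liver lists and no muscle peak were led by Fcna, the plasma lectin ficolin A, at 534 in WT and 1057 in 3SA liver. Impa2, an inositol monophosphatase, scored 369 and 422, Bard1, the partner of BRCA1, 338 and 460, Ifi27, an interferon-induced gene, 318 and 621, and 4930517M08Rik 278 and 426. The ERRE was at 26 of the 140 sites of this kind, or 18.6%.

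Genes of the tissues themselves were read from gene lists, with a gene counted when any of its peaks was a member. Over all 19188 genes named in any list, 3.39, 5.15, 3.76 and 5.71% had a member (650, 988, 721 and 1096 genes), and 884, 914, 507 and 810 genes had a CpG-rich promoter peak. Of 75 genes of contraction and the sarcomere, 8, 11, 5 and 5 had a member, or 10.7, 14.7, 6.67 and 6.67%. A CpG-rich promoter peak was at 1, 1, 0 and 0 of them. Tcap, the titin cap, scored 236 in WT and 296 in 3SA muscle, and Ankrd23, an ankyrin repeat protein of striated muscle, 108 and 119 with 33 in WT liver. Casq2, a calcium buffer of the sarcoplasmic reticulum, scored 90 and 39. No member of this list held an ERRE in the muscle windows.

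Of 26 genes of energy buffering and fuel supply in muscle, 5, 8, 3 and 3 had a member, and 2, 1, 0 and 2 a CpG-rich promoter peak. Those with a member were 19.2, 30.8, 11.5 and 11.5%, against 3.39, 5.15, 3.76 and 5.71% of all genes. Ak1, the adenylate kinase of muscle cytosol, scored 375 and 515 in WT and 3SA muscle and 33 and 61 in the livers. Ckmt2, the mitochondrial creatine kinase of striated muscle, scored 232 and 448 in muscle and 32 in 3SA liver. Ldhb, the lactate dehydrogenase subunit of oxidative fibres, scored 290, 396 and 160 as a member in WT muscle, 3SA muscle and WT liver, and had an intron peak (343) in 3SA liver. Myoglobin (Mb) and the insulin-responsive glucose transporter Slc2a4 were members in 3SA muscle at 35 and 36, near the minimum score.

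Of 83 genes of proteins secreted by hepatocytes, 1, 3, 8 and 10 had a member and none a CpG-rich promoter peak in any list. Apoc3, an apolipoprotein of triglyceride-rich particles, scored 99 in WT and 152 in 3SA liver, and Ambp, the precursor of α1-microglobulin, 299 in 3SA liver with an exon peak (177) in WT. In 3SA liver Igfbp1, a binding protein for insulin-like growth factors, scored 157 and Kng2, a kininogen, 128. The Igfbp1 member had a counterpart in WT liver. Of 103 genes of hepatic metabolism, 2, 5, 13 and 12 had a member, or 1.94, 4.85, 12.6 and 11.7%. A CpG-rich promoter peak was at 2, 3, 1 and 6 of them. Ugt3a2, a glycosyltransferase, scored 259 in WT and 330 in 3SA liver and Nr0b2, the corepressor SHP of bile acid control, 104 and 183. Hpd, an enzyme of tyrosine breakdown, scored 69 and 89. In WT liver Slc2a2, the hepatic glucose transporter, scored 75, with a counterpart in 3SA liver.

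Genes of the respiratory chain and the tricarboxylic acid cycle, among the best known ERRα targets, instead had a CpG-rich promoter peak more often than a member in every list. Of 81 genes of the respiratory chain, 3, 5, 7 and 13 had a CpG-poor member and 17, 23, 18 and 19 a CpG-rich promoter peak. Those with a member were 3.70, 6.17, 8.64 and 16.0% of the list, against 3.39, 5.15, 3.76 and 5.71% of all genes. In muscle these shares were near that of all genes. Sdhc scored 126, 186, 152 and 280 as a member in every list, and Sdhd was CpG-rich in the first 3 lists (243, 284 and 488) and a member in 3SA liver (633). Of 34 genes of the tricarboxylic acid cycle and pyruvate entry, 2, 4, 4 and 6 had a member, or 5.88, 11.8, 11.8 and 17.6%. A CpG-rich peak was at 10, 11, 7 and 8 of them. Pdk4, the kinase that holds pyruvate dehydrogenase off, scored 128 in WT muscle, 212 in WT liver and 344 in 3SA liver. Mpc1, a subunit of the mitochondrial pyruvate carrier, was a member in 3SA muscle (778) and WT liver (212). The WT muscle member of Pdk4 and both members of Mpc1 had a counterpart in the other genotype. A gene without a member in a list can thus still have a peak there.

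Of 66 genes of fatty acid oxidation, 7, 8, 4 and 6 had a member and 6, 6, 2 and 6 a CpG-rich peak. Those with a member were 10.6, 12.1, 6.06 and 9.09%, against 3.39, 5.15, 3.76 and 5.71% of all genes. Besides Cpt1b, Etfb, a subunit of the electron transfer flavoprotein, scored 59 and 126 in muscle. Acsl1, which activates long-chain fatty acids, scored 119 in 3SA muscle and 135 in WT liver at 1 start site, and 67 in 3SA liver at another start site. Its WT liver member also had a 3SA liver counterpart at the first start site. Of 54 genes of glycolysis and glycogen, 2, 4, 1 and 4 had a member and 4, 3, 4 and 5 a CpG-rich peak. The members were at 3.70, 7.41, 1.85 and 7.41% of this list, near the shares of all genes. These counts are small, and none was compared by a test.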

How the data were processed

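ERRα ChIP-seq peak lists of 4 libraries, 1 per genotype and tissue, were analysed, and the 4 input libraries are not used here. Per the labels and methods, reads were trimmed with Trimmomatic 0.36, mapped to mm10 with BWA 0.7.12, cleared of duplicates with Picard 2.0.1, called against input with MACS2 2.1.1.20160309 and annotated with HOMER 4.9.1, after which the authors left out mitochondrial and scaffold peaks. The authors deposited 1 list per pooled library, holding for each interval a peak score (a whole number of at least 30), its CpG and GC content as a fraction, and the distance in bp to the nearest start site. The lists hold no read counts. The methods describe windows around summits, whereas the deposited intervals vary in width, and centres of intervals were used here.

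Members and gene lists were chosen with earlier results of these data known. CpG content recomputed from GRCm38.p6 (RefSeq) equalled the deposited fraction, within 0.0001, for 25427, 50646, 21811 and 29037 peaks. Motifs were searched on both strands of 300 bp windows, and peaks with centres within 300 bp were called counterparts. RefSeq start sites were matched by accession within 100 bp. The nearest gene had the accession of the promoter annotation for 77.9, 79.0, 76.7 and 78.9% of members. Shares carry 95% Wilson intervals, differences Newcombe intervals and ratios intervals for counts, and tied scores took the best rank. Named were the 8 best-scoring members of each list, the 10 sites best ranked over all 4 lists, 5 sites per tissue without a peak in the other, 3 per list with neither a counterpart nor a shared base in the other genotype, up to 4 genes per gene list, Esrra and Ppargc1a. Further genes of the lists, among them Mb, Slc2a4, Per2 and Esrrg, and the sequences shown were picked after their values were seen. Computation used samtools 1.23.1 and, in Python 3.11.15, pysam 0.24.0, scipy 1.17.1, pandas 2.3.3, matplotlib 3.10.9 and numpy 2.4.6, and the scripts were tested on simulated data. Alternatives changed the score and CpG limits, the counterpart rule, the motif, the window and the list length. Some genes that the naming rule covers are not reported here.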

Additional observations from a re-analysis of the deposited data

How the results depend on the processing

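Values are in the order WT muscle, 3SA muscle, WT liver and 3SA liver. Over 20 results and 108 alternatives (100 planned and 8 on position added after the data were seen), 51 stayed within the interval of the value reported, 56 moved beyond it and 1 turned direction. No paired analysis was possible because each group is 1 library and the labels give no replicate numbers. The ratio of 3SA to WT members turned to 0.865 in muscle and fell to 1.23 in liver with lists of equal length, and was 2.17 in muscle at scores of 100 or more, a limit that need not mean the same in lists of unknown depth. The share of members with a counterpart in the other genotype was 13.7, 9.19, 32.7 and 21.6% with centres within 100 bp, 40.8, 28.5, 68.4 and 47.2% within 1000 bp, 36.8, 26.2, 66.3 and 44.6% with a shared base, and 78.8, 64.6, 87.2 and 78.5% at scores of 100 or more. It was 23.8, 15 and 52.8% in the first 3 lists with CpG content below 0.03, and 22.2, 27.1 and 46.2% in WT muscle, 3SA muscle and 3SA liver with lists of equal length. For muscle members with a liver counterpart, WT and 3SA gave 10% and 11.4% within 100 bp, 30.1 and 35.2% within 1000 bp, 28.3 and 30.8% with a shared base, 71.2 and 66.4% at scores of 100 or more, and 3SA gave 19.6% with CpG content below 0.03. The ERRE share was 8.22, 7.21, 21.0 and 16.6% with TNAAGGTCA, 10.2, 9.98, 22.0 and 18.8% over the whole interval, and 15.4, 11.5, 24.1 and 21.5% at scores of 100 or more. Its CpG-poor minus CpG-rich difference was 7.69 points in WT muscle (-1.75 to 20.3) and 12.2 in 3SA liver at scores of 100 or more, where the muscle intervals included 0, 12.9 in 3SA liver over the whole interval, and 1.78, 0.953, 4.63 and 3.66 near the start site. Members in the top 10% by score fell to 13.5, 15.3, 13.2 and 12.8% with CpG content below 0.03. Read depth is not known, so the cause of these shifts was not tested beyond list length.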

Other observations

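Genes of nuclear receptors and their coactivators were also among the CpG-poor promoter peaks. Of 48 such genes, 4, 5, 7 and 7 had a member in WT muscle, 3SA muscle, WT liver and 3SA liver, and 7, 3, 3 and 5 a CpG-rich promoter peak. The members were 8.33, 10.4, 14.6 and 14.6% of the list, against 3.39, 5.15, 3.76 and 5.71% of all genes named in any peak list, and rest on few genes. Besides Esrra, Nr4a1, an immediate early orphan receptor, scored 49 in WT and 65 in 3SA muscle with an ERRE at -927 bp from its start site. Thra, the thyroid hormone receptor α, scored 42 in 3SA muscle and 104 in WT liver, both with an ERRE. Esrrg, the ERRγ gene, had a member in WT muscle (42) and 3SA liver (32). Ppargc1a, the gene of PGC-1α, had a member in WT muscle alone, at the minimum score of 30. Membership covers CpG-poor promoter peaks only, so peaks of another class at Ppargc1a would not be counted here. The paper reports greater ERRα occupancy at this gene in muscle of the mutant mice. Membership in WT muscle alone therefore does not show that binding at Ppargc1a was restricted to WT.

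Of 23 genes of the circadian clock and its output, 2, 2, 1 and 4 had a member and 5, 3, 2 and 5 a CpG-rich promoter peak. The members were 8.70, 8.70, 4.35 and 17.4% of this list, and counts this small cannot be told from the share over all genes. Nr1d1, the clock repressor REV-ERBα, scored 30 in 3SA muscle, 49 in WT liver and 96 in 3SA liver, with an ERRE at -944 bp from its start site in each window. Per2, a core repressor of the clock, scored 57 in 3SA muscle and 98 in 3SA liver.

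Markers of other cells were counted in the same way. Of 31 immune and blood cell markers, 1, 1, 0 and 0 had a member, namely Itgb2 and Cd3e at the minimum score of 30, or 3.23% in either muscle list. Of 27 stromal markers the counts were 1, 1, 0 and 0, or 3.70% in either muscle list, with Col1a1 and Pdgfra at 36. Of 28 epithelial and neuronal genes they were 2, 3, 0 and 1, or 7.14, 10.7, 0 and 3.57%. Over all genes the shares were 3.39, 5.15, 3.76 and 5.71%. The epithelial and neuronal genes were above them in both muscle lists, the stromal markers in WT muscle only, and the immune markers in neither. In liver every group was below the share of all genes. All of these shares rest on few genes. The part of these markers in the results was not tested.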
